A study of Mus musculus with 36 samples.

Results

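The acute phase genes described here are 10 genes, Saa1, Saa2, Saa3, Orm1, Orm2, Hp, Lcn2, Steap4, Socs3 and A2m, taken by name from 22558 genes listed in each of 2 tables of mouse expression values. In the liver RNA, 5 of the 10 were higher after dimethyloxalylglycine (DMOG) than after phosphate-buffered saline (PBS), and 1 of the 10, A2m, was higher after roxadustat, where 8.26% and 2.16% of all genes tested were called higher. In the retina RNA, 3 of the 10 were measurable and none of these 3 passed the test. The 10 genes were chosen with earlier results of these data known, so these counts do not test them against all genes.

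The mice were C57BL/6 and received PBS, DMOG or roxadustat, and total RNA was sequenced in 36 libraries, 6 for each treatment under each of 2 tissue labels. No group carries a transgene or a deleted gene. DMOG is an analogue of 2-oxoglutarate that blocks many oxygen-dependent hydroxylases, and roxadustat is a drug that blocks the prolyl hydroxylases that mark hypoxia-inducible factor (HIF) for breakdown. Dose, time after dosing, age, sex and whether replicates are separate animals are not given in the labels, so the tests rest on the spread among libraries, which may be technical. Values are FPKM (fragments per kilobase of transcript, scaled to the size of the library), and without read counts the depth of each library is unknown.

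The tissue labels go against the transcriptomes. The 18 libraries labelled retina held 6299 to 12786 FPKM of Apoa1, the main protein of high-density lipoprotein made by liver, and 0.0392 to 0.473 FPKM of Sag, the arrestin of photoreceptors. The 18 libraries labelled liver held 2166 to 3683 FPKM of Sag and 0.0366 to 0.516 FPKM of Apoa1. The former are called liver RNA and the latter retina RNA throughout, and treatments follow the labels. Alb, the albumin gene and a defining hepatocyte marker, is listed at 0 in all 18 liver RNA libraries, as is Ahsg, another hepatocyte gene, and an exact 0 in such a table can be a failed estimate. The liver RNA library labelled DMOG replicate 5 stood apart from its group: Epo, a HIF target, is listed at 0 there, against 17.2 to 24.6 FPKM in the other 5 DMOG libraries, and Egln3, another HIF target, was at 8.23 FPKM against 46.4 to 72.5. PBS libraries held 0.0584 to 0.486 FPKM of Epo and 5.19 to 8.29 FPKM of Egln3. Results of the liver RNA are therefore given with and without this library. Xist, a transcript of female tissue, was above 1 FPKM in 3 PBS, 4 DMOG and 1 roxadustat library of the 6 in each liver RNA group, and in 5, 2 and 3 of the 6 in the retina RNA. A fit with Xist as a covariate is among the alternatives.

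The acute phase response is the change in plasma proteins made by liver during inflammation or injury. Interleukin-6 and related cytokines act through the receptor chain Il6st (gp130), Janus kinases and the transcription factor Stat3, while interleukin-1 and tumour necrosis factor act through NF-kB, and C/EBP proteins act with both. Saa1 and Saa2 encode serum amyloid A proteins secreted by hepatocytes and carried on lipoprotein, and Saa3 a form also made by macrophages and fat cells. Orm1 and Orm2 encode orosomucoids (alpha-1-acid glycoproteins), Hp encodes haptoglobin, which binds free haemoglobin, and Lcn2 a lipocalin that takes up bacterial siderophores. Steap4 is a metalloreductase of iron and copper induced by inflammatory signals, Socs3 a feedback inhibitor of Stat3 signalling, and A2m the protease inhibitor alpha-2-macroglobulin.

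RefSeq promoter windows (build GRCm38.p6, 250 bases before to 50 bases after the start site) were matched for 7 of the 10 genes: Saa1, Saa2, Saa3, Orm2, Lcn2, Steap4 and Socs3. Orm1, Hp and A2m are named only. The 250 bases before the start are shown for the serum amyloid genes, because the ratio of Saa1 to Saa2 varied little between libraries and that of Saa1 to Saa3 varied more, and for Steap4 and Socs3, which hold a STAT-type motif. Each is written 5′ to 3′ on the gene's strand, and capitals mark matches to the motifs described after them.
Saa1, chr7:46742981-46743230, minus strand: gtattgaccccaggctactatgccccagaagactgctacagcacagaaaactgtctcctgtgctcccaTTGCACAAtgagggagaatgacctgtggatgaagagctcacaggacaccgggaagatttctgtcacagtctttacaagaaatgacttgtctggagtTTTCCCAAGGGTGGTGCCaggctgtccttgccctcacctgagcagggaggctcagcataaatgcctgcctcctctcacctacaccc
Saa2, chr7:46751583-46751832, plus strand: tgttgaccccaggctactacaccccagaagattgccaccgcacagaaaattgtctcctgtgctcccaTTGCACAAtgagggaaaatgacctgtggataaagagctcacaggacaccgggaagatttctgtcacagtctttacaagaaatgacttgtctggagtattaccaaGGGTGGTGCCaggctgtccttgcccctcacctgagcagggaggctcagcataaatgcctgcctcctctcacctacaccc
Saa3, chr7:46715677-46715926, minus strand: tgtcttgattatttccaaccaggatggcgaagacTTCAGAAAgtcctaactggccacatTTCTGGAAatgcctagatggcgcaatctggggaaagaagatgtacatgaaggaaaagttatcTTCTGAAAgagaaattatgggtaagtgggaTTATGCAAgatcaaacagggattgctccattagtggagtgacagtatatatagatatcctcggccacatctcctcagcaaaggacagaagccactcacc
Steap4, chr5:7960222-7960471, plus strand: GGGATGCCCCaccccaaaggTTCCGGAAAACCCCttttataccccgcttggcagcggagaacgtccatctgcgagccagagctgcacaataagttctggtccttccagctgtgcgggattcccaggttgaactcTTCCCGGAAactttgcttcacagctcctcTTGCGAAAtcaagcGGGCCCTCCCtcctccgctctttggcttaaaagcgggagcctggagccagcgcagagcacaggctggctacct
Socs3, chr11:117969367-117969616, minus strand: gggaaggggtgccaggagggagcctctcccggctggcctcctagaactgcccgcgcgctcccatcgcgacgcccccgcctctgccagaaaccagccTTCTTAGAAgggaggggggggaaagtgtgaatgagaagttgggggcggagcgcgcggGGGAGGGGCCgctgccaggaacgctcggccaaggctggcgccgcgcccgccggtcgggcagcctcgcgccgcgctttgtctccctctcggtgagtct

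Motifs were searched on both strands of the whole 300-base windows, as TTNNGNAA for C/EBP, TTCNNNGAA for STAT proteins, GGG and CC with any 5 bases between them as a loose form for NF-kB, and ACGTG or GCGTG as the core of a HIF response element. Matches of different motifs may overlap. The C/EBP letters occurred 2 times in the Saa1 window, 1 time in Saa2, 4 times in Saa3, 2 times in Orm2, 1 time in Lcn2 and 2 times in Steap4, and were not found in Socs3. They were found in 40.7% of all 32841 windows of this length. The STAT letters, found in 8.3% of all windows, occurred as TTCCCGGAA in Steap4, starting at base -116 from the start site, and as TTCTTAGAA in Socs3, starting at base -154. The NF-kB letters, in 50.8% of all windows, occurred in Saa1, Saa2, Lcn2 and Socs3 once each and in Steap4 4 times. Neither HIF core, found as one or the other in 43.8% of all windows, was in any of the 7. The Saa1 and Saa2 windows were identical at 95.3% of aligned positions, and the Saa1 and Saa3 windows at 50.9%. The TTTCCCAA of Saa1 at base -86 had no match in Saa2, while TTGCACAA (base -182 in Saa1, base -183 in Saa2) and GGGTGGTGCC (base -78 and base -79) were in both. A match describes the letters only, and binding was not measured.

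The comparison of DMOG with PBS asks how a broad hydroxylase inhibitor moved these genes in the liver RNA. Of the 10 genes, 5 were higher after DMOG (Orm1, Lcn2, Steap4, Socs3 and A2m) and none was lower, in limma on log2(FPKM + 0.5) over all 12657 genes that averaged 0.5 FPKM or more, called at a Benjamini-Hochberg adjusted p below 0.05. All 10 passed that filter. Orm2, at a mean of 0.410 FPKM in PBS, passed it only through the drug groups (means of 34.2 FPKM in DMOG and 8.37 in roxadustat). Over all genes tested 20.0% were called, 8.26% as higher. The median log2 fold change of the 10 genes was 1.33, and that of all genes tested 0.01. Without DMOG replicate 5, 7 of the 10 were called higher, Orm2 and Hp in addition, where 35.4% of all genes were called and 17.3% as higher.

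A2m, the protease inhibitor, had the smallest adjusted p of the 10. PBS libraries ranged from 3.21 to 6.95 FPKM (median 4.40) and DMOG libraries from 4.51 to 78.3 (median 36.3), with means of 4.78 ± 1.28 and 38.6 ± 25.9 (SD, n = 6). DMOG replicate 5 fell within the PBS range, and the other 5 DMOG libraries, from 21.4 FPKM upwards, were all above it. The log2 fold change was 2.51 ± 0.48 (SE, adjusted p = 0.00211), and 3.02 ± 0.32 without DMOG replicate 5 (adjusted p = 1.62e-06). Of 3 related macroglobulin genes tested (Pzp, Mug1, Mug2) none was called after either drug by limma and none had an unadjusted p below 0.05, and Pzp was at 1605 ± 117 FPKM in PBS and 1620 ± 289 in DMOG.

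Socs3, the feedback inhibitor, ranged from 2.59 to 4.15 FPKM in PBS (median 3.04) and from 2.53 to 9.95 in DMOG (median 8.20). All DMOG libraries but replicate 5, the lowest of the 18, lay above the PBS range. The change was 1.02 ± 0.23 (adjusted p = 0.00546) on the log2 scale, and 1.28 ± 0.14 without that library (adjusted p = 2.16e-06).

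Steap4, the metalloreductase, ranged from 57.7 to 90.1 FPKM in PBS (median 71.3) and from 73.5 to 393 in DMOG (median 281). Again 5 of 6 DMOG libraries were above every PBS library, with replicate 4 the highest of all 18. In log2 terms the change was 1.60 ± 0.33 (adjusted p = 0.00323), and 1.91 ± 0.26 without DMOG replicate 5 (adjusted p = 2.11e-05). Of the other 3 Steap reductases 1 was higher and 1 lower. Steap1 rose (0.587 ± 0.210 FPKM in PBS, 1.50 ± 0.646 in DMOG; log2 fold change 0.83 ± 0.19, adjusted p = 0.00495). Steap3, the ferrireductase of the transferrin cycle, was lower, at 12.2 ± 0.832 FPKM in PBS and 6.38 ± 2.61 in DMOG (log2 fold change -0.96 ± 0.18, adjusted p = 0.00211).

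Lcn2, the siderophore-binding lipocalin, ranged from 74.5 to 196 FPKM in PBS (median 130) and from 104 to 1041 in DMOG (median 464). Its 5 higher DMOG libraries lay above the PBS range and DMOG replicate 5 within it. This gave a log2 fold change of 1.75 ± 0.44 (adjusted p = 0.00989), and 2.15 ± 0.35 without DMOG replicate 5 (adjusted p = 1.58e-04). Neutrophils store lipocalin-2, and in these libraries 13 neutrophil markers summed to 875 to 2018 FPKM in PBS, 945 to 2717 in DMOG and 908 to 1931 in roxadustat, with none of the 13 at 0 and none called in either comparison with PBS (2 of 13 after DMOG and 0 after roxadustat at an unadjusted p below 0.05, limma). Without DMOG replicate 5, 1 of the 13 was called higher after DMOG, Prtn3 (named after its values were seen), where 17.3% of all genes were called higher. The library with the highest Lcn2, DMOG replicate 6, held 1619 FPKM of these markers. That was below PBS replicate 1 at 2018 FPKM and above the other PBS libraries, at 875 to 1509 FPKM.

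The orosomucoid genes spread over the widest range. Orm1 ranged from 1.76 to 9.0 FPKM in PBS (median 3.42) and from 1.65 to 223 in DMOG (median 25.2). DMOG replicate 5 was the lowest of the 18 libraries and the other 5 DMOG libraries were above every PBS library. The log2 fold change was 2.50 ± 0.83 (adjusted p = 0.0414), and 3.19 ± 0.71 without DMOG replicate 5 (adjusted p = 0.00209). This call was lost, at adjusted p of 0.05003 to 0.0988, when any of 10 libraries was left out (PBS replicates 2 to 6, DMOG replicates 2, 3, 4 and 6, and roxadustat replicate 1), and without DMOG replicate 6 the log2 fold change was 1.85.

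Orm2 ranged from 0.129 to 0.731 FPKM in PBS (median 0.349) and from 0.144 to 170 in DMOG (median 6.60). The same 5 DMOG libraries exceeded the PBS range, 2 of them only slightly at 1.05 and 0.962 FPKM. With all libraries the log2 fold change of 2.85 ± 1.05 did not pass (adjusted p = 0.0642). It passed without DMOG replicate 5 (3.51 ± 1.00, adjusted p = 0.0111) and without DMOG replicate 2 (3.27, adjusted p = 0.0454), and without DMOG replicate 6 the value was 1.90 (adjusted p = 0.142). Orm1 and Orm2 are close paralogs, so how reads were divided between them is uncertain.

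Hp had the highest level of the 10 genes and the narrowest span. PBS libraries ranged from 2761 to 3320 FPKM (median 2903) and DMOG libraries from 2763 to 6531 (median 3808). Only DMOG replicate 5 lay within the PBS range. The log2 fold change was 0.46 ± 0.17 (adjusted p = 0.0625), and 0.57 ± 0.16 without that library (adjusted p = 0.00947). Of 6 tested partners of haptoglobin and lipocalin-2, such as receptors and haem handling genes, 1 was called in all libraries, Hmox1, the haem oxygenase (69.8 ± 15.1 FPKM in PBS, 98.5 ± 11.5 in DMOG; log2 fold change 0.51 ± 0.16, adjusted p = 0.0305).

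The serum amyloid genes were not called after DMOG, with or without replicate 5. Saa1 ranged from 4.79 to 14.2 FPKM in PBS (median 11.6) and was at 3.42, 6.27, 7.82, 31.1, 42.2 and 180 FPKM in the DMOG libraries. Those values split the group: 3 libraries lay above the PBS range, 2 within it and 1 below it. On the log2 scale the change was 0.95 ± 0.81 (adjusted p = 0.418), and 1.41 ± 0.79 without DMOG replicate 5 (adjusted p = 0.173). It was 0.31 without DMOG replicate 6, the highest DMOG library. DMOG replicates 1 and 2, which held 7.82 and 6.27 FPKM of Saa1, held 24.6 and 22.0 FPKM of Epo and 31.6 and 41.0 FPKM of A2m, far above PBS.

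Saa2 was at 1.34, 1.72, 2.75, 13.9, 14.99 and 53.6 FPKM in DMOG, against 1.44 to 5.40 in PBS (median 3.60). The 3 highest libraries were those of Saa1. This was a log2 fold change of 1.05 ± 0.83 (adjusted p = 0.377), and 1.45 ± 0.83 without DMOG replicate 5 (adjusted p = 0.182). Saa3 was at 2.91 to 93.7 FPKM in DMOG (median 20.2), and already spread from 3.42 to 24.5 FPKM in PBS (median 11.4). Its log2 fold change was 0.73 ± 0.70 (adjusted p = 0.469), and 1.20 ± 0.65 without DMOG replicate 5 (adjusted p = 0.156). Leaving out DMOG replicate 6 gave 0.48 for Saa2 and 0.24 for Saa3. Summed macrophage markers (15 genes, none at 0) ranged from 874 to 1639 FPKM in PBS, 685 to 1944 in DMOG and 730 to 1668 in roxadustat. None of the 15 was called after either drug in all libraries (1 after DMOG and 0 after roxadustat at an unadjusted p below 0.05, limma). Without DMOG replicate 5, which had the lowest sum of the 18, 7 were called higher after DMOG. The median log2 fold change of the 15 was then 0.46, and 17.3% of all genes were called higher. The part of macrophage RNA in the values of Saa3 or the other genes was not tested. In bulk samples, fewer cells of a type and less RNA per cell cannot be told apart.

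**Figure D1:**
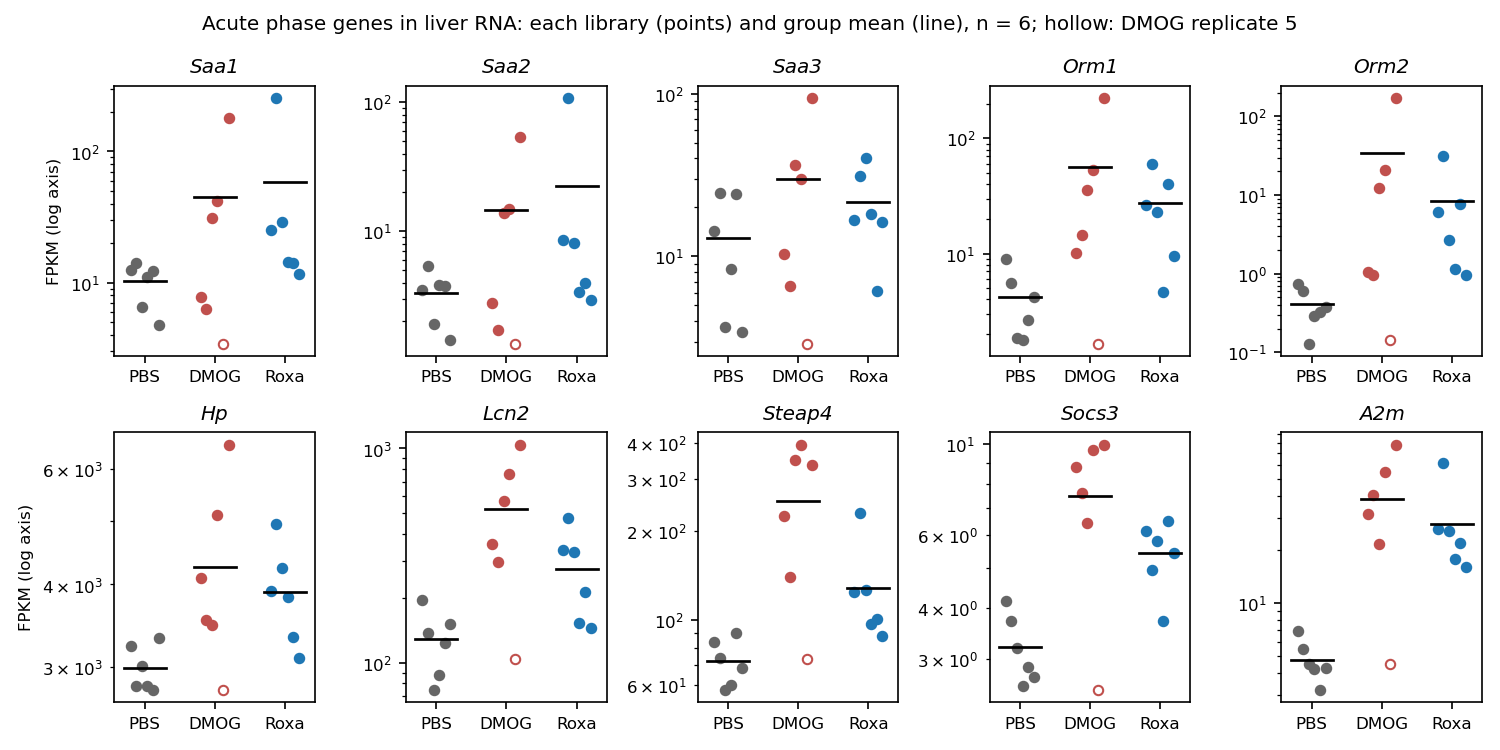
FPKM (log axis) of each acute phase gene in every liver RNA library, by treatment, with points for libraries, a line for the group mean and a hollow point for DMOG replicate 5. For A2m, Socs3, Steap4, Lcn2, Orm1, Orm2 and Hp the 5 other DMOG libraries lie above all 6 PBS libraries, while for Saa1, Saa2 and Saa3 only 3 DMOG libraries do.

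The comparison of roxadustat with PBS asks the same of a more selective inhibitor. Of the 10 genes, 1 was called, A2m, which was higher, where 4.19% of all genes tested were called and 2.16% as higher. At an unadjusted p below 0.05 there were 7 of the 10, among them Orm2, which passed the filter only through the drug groups. The share of all genes at that unadjusted threshold is not given here. The median log2 fold change of the 10 was 1.18, against -0.00073 over all genes tested. Without DMOG replicate 5, which enters this fit through the shared estimate of the spread, 3 of 10 were called higher (Orm1, Socs3 and A2m), where 8.74% of all genes were called and 4.12% as higher. The comparisons of each drug with PBS share the PBS libraries.

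A2m was at 15.9 to 61.4 FPKM in the roxadustat libraries (median 23.6), and all 6 lay above the PBS range, which ended at 6.95 FPKM. The log2 fold change was 2.32 ± 0.48 (adjusted p = 0.00894), and the same value had an adjusted p of 8.57e-05 without DMOG replicate 5. Socs3 was at 3.71 to 6.48 FPKM (median 5.62), with 5 of 6 libraries above the PBS range. Its log2 fold change of 0.67 ± 0.23 did not pass in all libraries (adjusted p = 0.111) and passed without DMOG replicate 5 (adjusted p = 0.00336).

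Orm1 was at 4.64, 9.44, 23.0, 26.4, 40.3 and 60.3 FPKM after roxadustat, with 5 of 6 libraries above the PBS range. The log2 fold change of 2.35 ± 0.83 had an adjusted p of 0.120, and of 0.0360 without DMOG replicate 5. Orm2 was at 0.953 to 31.6 FPKM (median 4.38), so that its lowest roxadustat library lay above the highest PBS library at 0.731 FPKM. Its log2 fold change of 2.45 ± 1.05 did not pass (adjusted p = 0.209, and 0.124 without DMOG replicate 5).

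Lcn2 was at 145 to 474 FPKM after roxadustat (median 271), with 4 libraries above the PBS range and 2 within it, and a log2 fold change of 1.04 ± 0.44 (adjusted p = 0.206). Steap4 was at 87.9 to 230 FPKM (median 113), with 5 libraries above the PBS range, and a log2 fold change of 0.75 ± 0.33 (adjusted p = 0.226). Hp was at 3087 to 4952 FPKM (median 3873), also with 5 libraries above PBS, and a log2 fold change of 0.37 ± 0.17 (adjusted p = 0.238). None of these 3 passed without DMOG replicate 5 either.

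The highest Saa1 and Saa2 values of the series were in a single roxadustat library. Saa1 was at 255 FPKM in roxadustat replicate 2 and at 11.6 to 29.2 FPKM in the other 5, of which 2 lay within the PBS range. A log2 fold change of 1.49 ± 0.81 (adjusted p = 0.337) became 0.86 without replicate 2. Saa2 was at 108 FPKM in that library and 2.92 to 8.60 in the others (log2 fold change 1.33 ± 0.83, adjusted p = 0.411, and 0.61 without that library). Saa3 did not share that peak: it was at 31.1 FPKM in replicate 2 and 40.1 in replicate 3, over a range of 6.15 to 40.1 FPKM (log2 fold change 0.86 ± 0.70, adjusted p = 0.538). Roxadustat replicate 2 also had the lowest Epo of its group, 2.12 FPKM against 5.07 to 5.65.

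**Figure D2:**
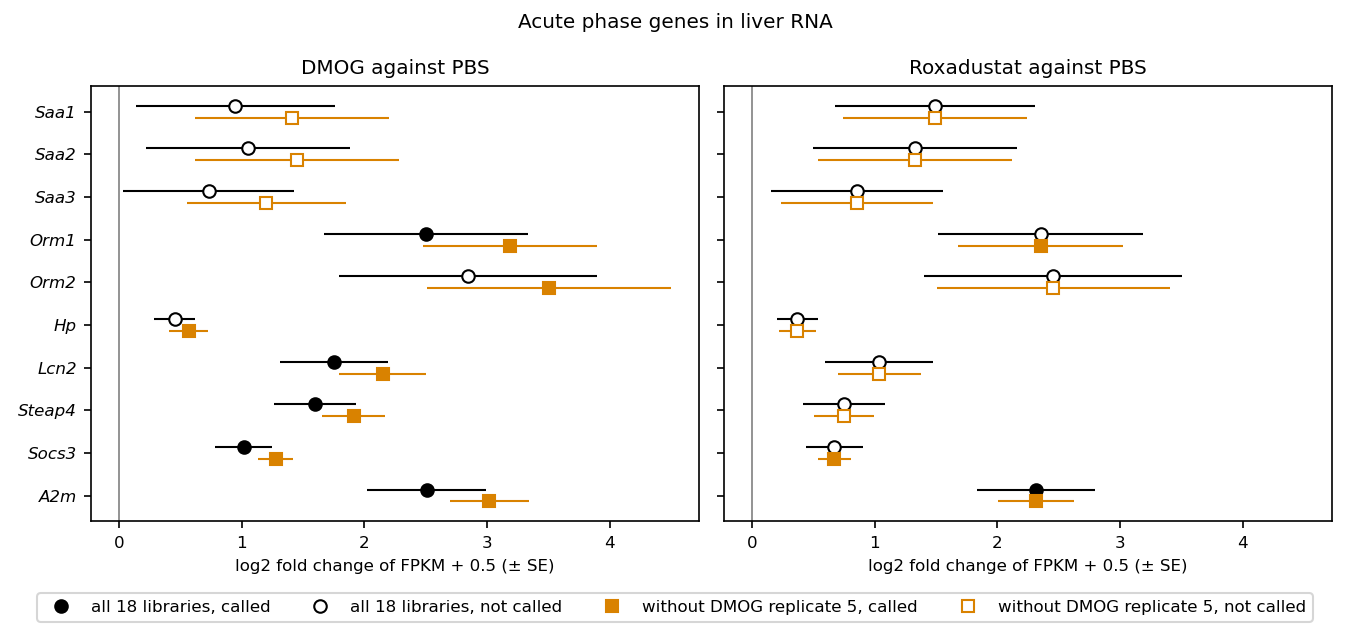
Log2 fold change of FPKM + 0.5 against PBS (horizontal axis, bars are ± 1 SE) for each gene after DMOG and after roxadustat, in all 18 liver RNA libraries (circles) and without DMOG replicate 5 (squares), filled where the adjusted p was below 0.05. All values are above 0, and 5 genes are filled for DMOG and 1 for roxadustat in all libraries.

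The drugs were then compared with each other in the libraries as treated, since doses and times are not given and cannot be told apart from the drug. Of the 10 genes, none was called between roxadustat and DMOG, where 2.99% of all genes tested were called, and 1 (Steap4) had an unadjusted p below 0.05. Steap4 was lower after roxadustat by a log2 difference of -0.85 ± 0.33, with a 95% interval of -1.55 to -0.15 (adjusted p = 0.176). The interval was -1.65 to 0.21 for Lcn2, -0.83 to 0.14 for Socs3, -1.20 to 0.82 for A2m and -0.44 to 0.27 for Hp. For Saa1 it ran from -1.17 to 2.25 and for Orm2 from -2.60 to 1.82, so differences of several fold in either direction were not detectable.

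Without DMOG replicate 5, 3 of the 10 genes were called lower after roxadustat, where 16.2% of all genes were called and 7.14% as lower. Steap4 differed by -1.16 ± 0.26 (adjusted p = 0.00485), Lcn2 by -1.11 ± 0.35 (adjusted p = 0.0401) and Socs3 by -0.60 ± 0.14 (adjusted p = 0.00657) on the log2 scale. All 6 roxadustat libraries then lay at or below 230 FPKM of Steap4, whereas the 5 DMOG libraries were at 139 to 393, so the ranges overlapped. A2m differed by -0.70 ± 0.32, which did not pass (adjusted p = 0.153).

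Most of the 10 genes were among the most variable of all genes within treatments. Over the 12657 genes tested the median residual SD was 0.177 on the log2 scale. That of Orm2 was 2.01, the 18th highest of all genes, and those of Orm1 (1.59), Saa2 (1.59), Saa1 (1.56) and Saa3 (1.33) ranked 31st, 33rd, 34th and 49th. The SD was 0.92 for A2m, 0.84 for Lcn2, 0.63 for Steap4, 0.44 for Socs3 and 0.30 for Hp. These SDs and ranks include DMOG replicate 5. Leaving it out took the log2 SD of the DMOG libraries from 0.67 to 0.25 for Socs3 and from 1.40 to 0.71 for A2m. It went from 0.94 to 0.61 for Steap4, from 2.06 to 1.93 for Saa1 and from 3.04 to 2.87 for Orm2. Part of that spread was present without a drug: among the 6 PBS libraries the log2 SD was 1.20 for Saa3 and 0.82 for Orm1, against a median of 0.148 over all genes and 0.11 for Hp. From the lowest to the highest library Orm2 spanned 1315-fold, Orm1 135-fold, Saa1 74.4-fold and Hp 2.37-fold.

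The genes rose to different heights in the same libraries. DMOG replicate 6 was the highest of 18 for 7 genes (Saa3, Orm1, Orm2, Hp, Lcn2, Socs3 and A2m), DMOG replicate 4 for Steap4, and roxadustat replicate 2 for Saa1 and Saa2. All 10 genes exceeded their PBS range in DMOG replicates 3, 4 and 6 and in roxadustat replicates 2 and 3, and none did in DMOG replicate 5. In DMOG replicates 1 and 2 the 7 genes other than Saa1, Saa2 and Saa3 exceeded it. The number was 9, 5, 7 and 4 in roxadustat replicates 1, 4, 5 and 6. Over the 10 genes, the median log2 difference from the PBS mean was 3.55 in DMOG replicate 6, 2.77 in roxadustat replicate 2, 0.40 in roxadustat replicate 4 and -0.37 in DMOG replicate 5. Roxadustat replicate 4 held 5.07 FPKM of Epo, within the range of its group. DMOG replicate 6 and roxadustat replicate 2 held 1619 and 1200 FPKM of neutrophil markers and 1486 and 1420 FPKM of macrophage markers, inside the PBS ranges. PBS replicate 1 held 2018 and 1639 FPKM of these markers, and the other PBS libraries 875 to 1509 and 874 to 1071 FPKM.

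**Figure D3:**
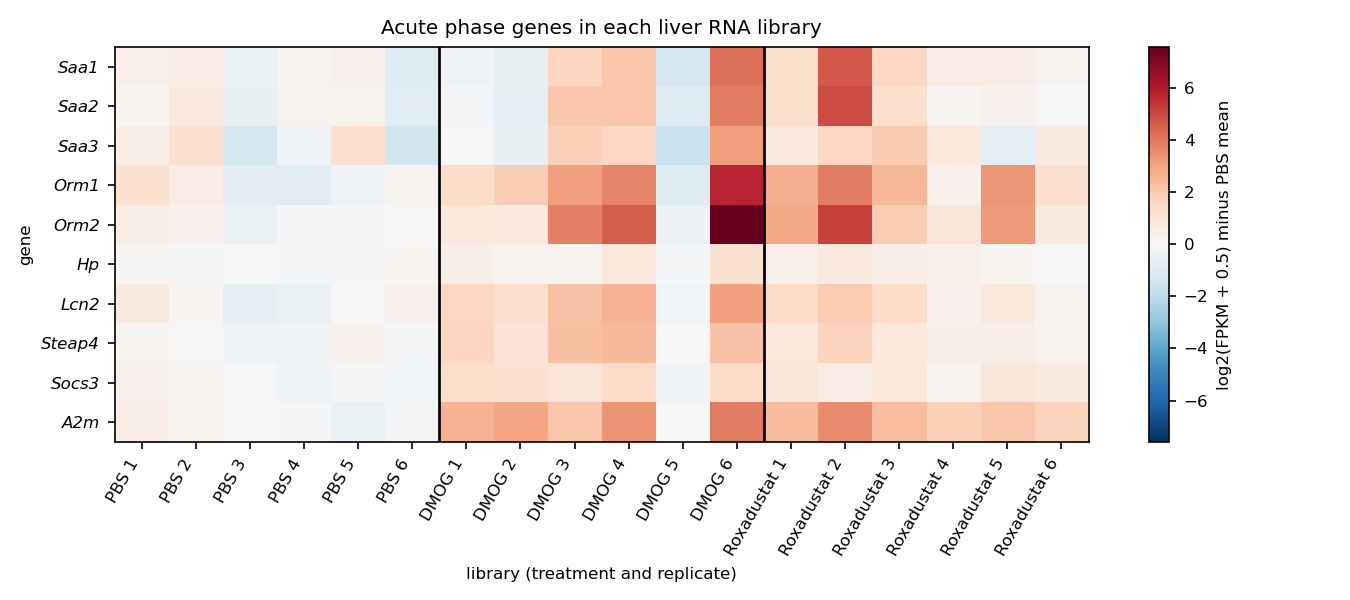
Log2(FPKM + 0.5) of each acute phase gene (rows) minus its PBS mean in each of the 18 liver RNA libraries (columns, grouped by treatment), red above and blue below the PBS mean. In DMOG replicate 5 no gene exceeded its PBS range, and DMOG replicate 6 and roxadustat replicate 2 have the highest medians over the 10 genes, 3.55 and 2.77.

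Ratios within a library compare paralogs without the differences between libraries. The FPKM of Saa1 was 2.24 to 4.25 times that of Saa2 in all 18 libraries (median 3.30), although Saa1 spanned 74.4-fold and Saa2 80.2-fold. Since these genes are near-identical copies, reads can be divided between them by the counting step, and the ratio is uncertain. The ratio of Saa1 to Saa3 ran from 0.505 to 8.19, with the highest value in roxadustat replicate 2 and a median of 1.07. That of Orm1 to Orm2 ran from 1.31 to 15.1, with medians of 10.2 in PBS, 6.32 in DMOG and 4.78 in roxadustat, and the groups overlapped.

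In the retina RNA, 3 of the 10 genes passed the filter of a mean of 0.5 FPKM: Lcn2, Socs3 and A2m. The other 7 reached at most 0.271 FPKM in any of the 18 libraries. Saa3 is listed at 0 in all 6 PBS libraries, and Orm1 was above 0 in 1 of 18. None of the 3 was called after DMOG, after roxadustat or between the drugs, where 1.07%, 2.34% and 1.31% of the 13779 genes tested were called. At an unadjusted p below 0.05 there were 0, 0 and 1 of the 3.

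Socs3 was at 2.03 ± 0.283 FPKM in PBS, 1.95 ± 0.336 in DMOG and 2.02 ± 0.282 in roxadustat in the retina RNA (SD, n = 6). The 95% interval of its log2 fold change was -0.25 to 0.15 after DMOG and -0.21 to 0.20 after roxadustat. Lcn2 ranged from 2.08 to 2.95 FPKM in PBS (median 2.22), from 1.10 to 3.01 in DMOG (median 1.43) and from 1.40 to 3.33 in roxadustat (median 1.65). The groups overlapped, and the log2 fold changes of -0.37 ± 0.19 after DMOG (adjusted p = 0.399) and -0.25 ± 0.19 after roxadustat (adjusted p = 0.545) did not pass. A2m was at 2.53 ± 0.891 FPKM in PBS, 2.18 ± 0.677 in DMOG and 3.23 ± 0.719 in roxadustat. Its difference between roxadustat and DMOG, 0.50 ± 0.20 on the log2 scale, had an unadjusted p of 0.0252 and an adjusted p of 0.356. As a mark of drug action in these libraries, 5 of 6 HIF target reference genes were higher after roxadustat, among them Pdk1 (log2 fold change 1.48 ± 0.15) and Egln1 (0.91 ± 0.07), and 0 of 6 after DMOG (3 of 6 at an unadjusted p below 0.05, limma).

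**Figure D4:**
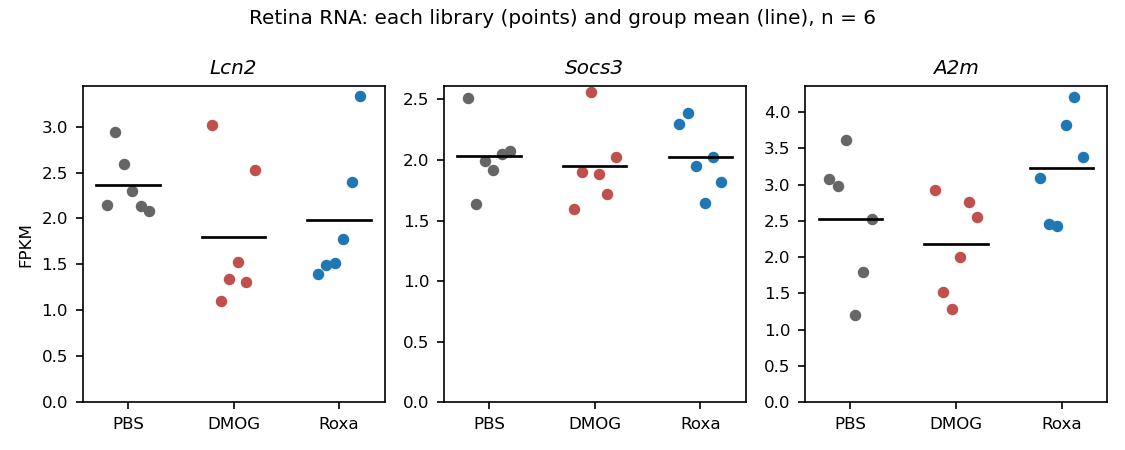
FPKM (linear axis from 0) of the 3 acute phase genes that passed the filter in the 18 retina RNA libraries, by treatment, with points for libraries and a line for the group mean. For all 3 genes the treatments overlap, and no library exceeds 4.21 FPKM.

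The response was then compared between the tissues, as the liver RNA log2 fold change minus that of the retina RNA, over 11101 genes that passed the filter in both. Because the tissue labels go against the transcriptomes, the direction rests on the transcriptomes. After DMOG, all 3 genes measurable in both responded more in the liver RNA, where 15.9% of all genes tested were called. Without DMOG replicate 5 of the liver RNA all 3 passed again, where 28.8% of all genes were called. The difference was 2.67 ± 0.54 for A2m (adjusted p = 0.00123), 2.12 ± 0.50 for Lcn2 (adjusted p = 0.00407) and 1.07 ± 0.26 for Socs3 (adjusted p = 0.00502). After roxadustat, 1 of the 3 was called, where 2.24% of all genes were. A2m differed by 1.98 ± 0.54 (adjusted p = 0.0434), while Lcn2 (1.28 ± 0.50, adjusted p = 0.181) and Socs3 (0.68 ± 0.26, adjusted p = 0.169) did not pass.

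The roxadustat call for A2m was lost, at adjusted p of 0.0509 to 0.0814, when any of 18 of the 36 libraries was left out. These were PBS replicates 2 to 6 and roxadustat replicates 1 to 3 of the liver RNA, and PBS replicates 1, 2, 3 and 6, DMOG replicate 4 and roxadustat replicates 1, 2, 3, 4 and 6 of the retina RNA. With DMOG replicate 5 of the liver RNA left out, Socs3 was called in addition (adjusted p = 0.0129, where 4.75% of all genes were called), and A2m had an adjusted p of 0.00118.

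Genes upstream of the acute phase proteins were described from lists of known pathway members, with 5 of 13 tested cytokine ligands and receptors higher after DMOG in the liver RNA and 1 of 13 after roxadustat. The list's median log2 fold change was 0.45 after DMOG and 0.10 after roxadustat, against 0.01 and -0.00073 over all genes tested. Il1r1, the interleukin-1 receptor, was at 9.45 ± 0.966 FPKM in PBS, 17.9 ± 4.76 in DMOG and 15.2 ± 2.03 in roxadustat. It was called after both, with log2 fold changes of 0.85 ± 0.15 (adjusted p = 0.00120) and 0.65 ± 0.15 (adjusted p = 0.0158). Il6st, the shared receptor chain of interleukin-6 cytokines, was at 39.3 ± 4.31, 58.5 ± 11.3 and 51.6 ± 1.65 FPKM, and was called after DMOG (0.55 ± 0.11, adjusted p = 0.00279) but not after roxadustat (0.39 ± 0.11, adjusted p = 0.0528). Osm, the cytokine oncostatin M, and its receptor Osmr were higher after DMOG by 0.87 ± 0.21 (adjusted p = 0.00739) and 0.82 ± 0.18 (adjusted p = 0.00490), from 0.240 to 0.879 FPKM and from 1.32 to 2.82 FPKM in group means. Il6 itself was at 0.0601 to 0.381 FPKM over all 18 libraries and failed the filter. Il1b (0.98 ± 0.37, adjusted p = 0.0694), Tnf (0.63 ± 0.31, adjusted p = 0.150) and Il6ra (-0.20 ± 0.12, adjusted p = 0.231) did not pass after DMOG. Without DMOG replicate 5, 9 of 13 were higher after DMOG, Il1b and Tnf among them, and 4 were higher and 1 lower after roxadustat. Of all genes tested, 8.26% were called higher after DMOG and 2.16% after roxadustat, and 17.3% and 4.12% without DMOG replicate 5.

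Among 23 signalling proteins and transcription factors, 2 were higher after DMOG and 4 after roxadustat, and none was lower, with medians of 0.20 and 0.04, where 8.26% and 2.16% of all genes were called higher. Stat3 was at 44.5 ± 3.51 FPKM in PBS, 68.4 ± 10.1 in DMOG and 56.7 ± 2.34 in roxadustat, with log2 fold changes of 0.60 ± 0.09 (adjusted p = 0.000792) and 0.35 ± 0.09 (adjusted p = 0.0273). Cebpd, a C/EBP factor induced in inflammation, rose from 2.75 ± 0.596 FPKM to 4.98 ± 1.42 and 4.81 ± 0.992 (0.72 ± 0.18, adjusted p = 0.00959, and 0.71 ± 0.18, adjusted p = 0.0319). Cebpb was called after roxadustat (0.84 ± 0.20, adjusted p = 0.0231) and not after DMOG (0.54 ± 0.20, adjusted p = 0.0669), and Stat5a after roxadustat (0.36 ± 0.07, adjusted p = 0.00799). Leaving out DMOG replicate 5, the count after DMOG was 10 of 23, and after roxadustat 5 of 23, against 17.3% and 4.12% of all genes. In the retina RNA 0 of 8 tested cytokine genes were called after either drug (2 after DMOG and 0 after roxadustat at an unadjusted p below 0.05, limma).

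**Figure D5:**
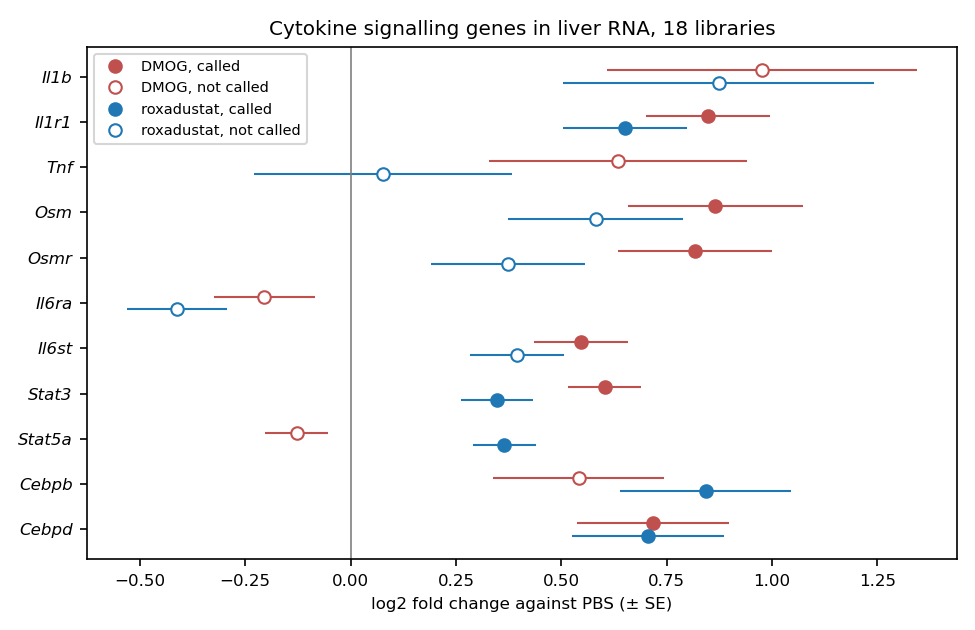
Log2 fold change against PBS (horizontal axis, bars are ± 1 SE) of cytokine, receptor and transcription factor genes in the 18 liver RNA libraries, red for DMOG and blue for roxadustat, filled where the adjusted p was below 0.05. Il1r1, Stat3 and Cebpd are filled for both drugs, Osm, Osmr and Il6st for DMOG, and Cebpb and Stat5a for roxadustat.

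Other acute phase genes listed as rising in inflammation, not all of them for plasma proteins, moved in part. Of 33 tested, 10 were higher and 1 lower after DMOG, and 4 were higher after roxadustat, with medians of 0.33 and 0.29, where 8.26% and 2.16% of all genes were called higher. The counts without DMOG replicate 5 were 16 higher and 1 lower after DMOG, and 7 higher after roxadustat, where 17.3% and 4.12% of all genes were called higher. Serpina3n, a serine protease inhibitor, was at 404 ± 59.4 FPKM in PBS and 832 ± 303 in DMOG (0.97 ± 0.22, adjusted p = 0.00573). Fgl1, a hepatocyte secreted protein related to fibrinogen, was called after both drugs (0.74 ± 0.17, adjusted p = 0.00523, and 0.62 ± 0.17, adjusted p = 0.0417). Il1r1, a receptor, and Cebpd, a transcription factor, are in this list too. Both were called after both drugs and are also counted in the upstream lists above. The 1 lower gene, named after its values were seen, was Saa4. It is the constitutive serum amyloid A, so its place in a list of rising genes is open to doubt. Saa4 was at 30.3 ± 3.91 FPKM in PBS, 20.5 ± 7.75 in DMOG and 38.3 ± 6.95 in roxadustat (-0.62 ± 0.18 after DMOG, adjusted p = 0.0240). Of 8 tested plasma proteins known to fall in inflammation, none was called after either drug by limma, with or without DMOG replicate 5, and none had an unadjusted p below 0.05.

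Markers of other cells and of drug action are given for the same liver RNA libraries. All 7 HIF target reference genes were higher after each drug, with or without DMOG replicate 5. None of 10 erythroid markers was called in all libraries or had an unadjusted p below 0.05, and 1 was higher after DMOG without DMOG replicate 5. Of 11 tested hepatocyte markers, 2 were higher after DMOG (Fgb and Tat, named after their values were seen), and 3 without DMOG replicate 5. After roxadustat none was called or had an unadjusted p below 0.05 in either fit. Of 8 pericyte and mural cell markers, 2 were higher after DMOG, and 1 was higher and 1 lower after roxadustat, in both fits. Of 5 bile duct markers, 2 were higher after DMOG and none after roxadustat, again in both fits. Roxadustat called 4.19% of all genes either way, and 8.74% without DMOG replicate 5. Of 10 endothelial markers, 3 were higher after DMOG and 1 after roxadustat, and without DMOG replicate 5 there were 5 and 2. These counts stand beside 8.26% of all genes called higher after DMOG and 2.16% after roxadustat, and 17.3% and 4.12% without that library. The part of other cell types in the values of the acute phase genes was not tested.

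The genes most like A2m over the 18 liver RNA libraries, by Pearson's r of log2(FPKM + 0.5), were Il1r1 (0.95), Serpina3n (0.94), Crybb3 (0.94), Pgam1 (0.94) and Pgk1 (0.94). Those most like Saa1 were Atp2a2 (0.87), Mup3 (0.87), Xlr (0.87), Heatr5a (0.86) and 5430435G22Rik (0.85). These values describe libraries that share treatments, and they were ranked over all genes tested. Between the lowest and highest library Atp2a2 ran from 39.7 to 63.9 FPKM and Heatr5a from 5.37 to 7.96 FPKM, far less than the 74.4-fold span of Saa1.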

How the data were processed

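Total RNA of C57BL/6 mice was extracted with RNeasy columns and sequenced after removal of ribosomal RNA with a stranded TruSeq kit, per the labels' protocols. The authors deposited FPKM per gene and library, 1 table per tissue label. Per the submitters' processing notes, the tools were bcl2fastq 1.8.3, TopHat2 (version 2) and Cuffdiff 2.2.1, with mouse build mm9. The annotation and the scaling of libraries are not given in the sources used here. A row of totals was left out.

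Each table was fitted in limma 3.58.1 (R 4.3.3, statmod 1.5.0) as 3 treatment means of log2(FPKM + 0.5), over genes that averaged 0.5 FPKM or more (12657 in liver RNA, 13779 in retina RNA), using empirical Bayes moderation with a mean trend and 15 residual degrees of freedom. Tests were two-sided, and p-values were adjusted by Benjamini-Hochberg across every gene tested. The log2 scale with this pseudocount understates changes of low genes. The difference between tissues was fitted over all 36 libraries. The tests were checked on simulated data.

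The 10 genes and the lists were chosen with earlier results of these data known. All 10 genes are named, and from each list up to 4 called genes with the smallest adjusted p, plus Il6, Il6ra, Il6st, Stat3, Cebpb, Cebpd, Il1b, Tnf and Osmr. Some genes that this rule names are not reported here. Leaving out DMOG replicate 5 for the lists was chosen after seeing the data. Alternatives were other pseudocounts (0.1 and 1), no filter, a filter at 5 FPKM, equal totals, median ratios, no trend, robust empirical Bayes, array weights, Xist as a covariate, a replicate block, and each library left out. Promoters were read from RefSeq windows (GRCm38.p6, another build than the files, used for sequence only) and aligned with Biopython 1.88.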

Additional observations from a re-analysis of the deposited data

Results flagged for a closer look

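In 10 of 39 groups of 6 liver or retina RNA libraries checked, 1 library lay far from the other 5 (Dixon's test at 95%, on FPKM and not on the log2 scale). Chance exceeds this test in about 1 of 20 groups only where values are normally distributed, which was not shown for FPKM. The genes are also not independent, so the count of 10 cannot be set against that rate. DMOG replicate 6 of the liver RNA was the highest of its group at 180.1 FPKM for Saa1, 53.6 for Saa2, 93.7 for Saa3, 222.7 for Orm1 and 169.9 for Orm2. The other DMOG libraries reached at most 42.2, 14.99, 36.5, 52.9 and 21.0 FPKM. Roxadustat replicate 2 of the liver RNA was the highest of its group at 254.5 FPKM for Saa1, 107.6 for Saa2, 31.6 for Orm2, 230.1 for Steap4 and 61.4 for A2m, where the others reached at most 29.2, 8.60, 7.75, 127 and 26.3 FPKM.

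The response differed between the tissues by the contrast over all 36 libraries, as liver RNA minus retina RNA, for A2m after DMOG (2.67 on the log2 scale), Lcn2 after DMOG (2.12), Socs3 after DMOG (1.07) and A2m after roxadustat (1.98).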

How the results depend on the processing

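Leaving out each library in turn gave 4 to 7 of the 10 genes called after DMOG in the liver RNA, 1 to 3 after roxadustat and 0 to 3 between the drugs, with the highest counts of 7, 3 and 3 without DMOG replicate 5. The counts were 0 in every retina RNA fit, 3 in every fit of the difference between tissues after DMOG, and 0 to 2 after roxadustat, with 2 without DMOG replicate 5. Lcn2, Steap4, Socs3 and A2m after DMOG, and A2m after roxadustat, stayed called in all 18 fits of the liver RNA. Between the drugs in the liver RNA, the log2 difference changed sign for 7 genes, over -0.093 to 1.19 for Saa1, -0.45 to 0.85 for Saa2, -0.35 to 0.61 for Saa3, -0.83 to 0.51 for Orm1, -1.05 to 0.56 for Orm2, -0.20 to 0.051 for Hp and -0.70 to 0.093 for A2m. In the retina RNA it ran from -0.12 to 0.00038 for Socs3 after DMOG, -0.053 to 0.046 for Socs3 after roxadustat and -0.0099 to 0.26 for Lcn2 between the drugs.

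Array weights gave 7 genes called after DMOG, Hp (0.59, adjusted p = 0.00556) and Orm2 (3.23, adjusted p = 0.0198) in addition, 4 after roxadustat, 2 between the drugs and 2 for the difference between tissues after roxadustat. They turned Saa3 between the drugs to -0.12 and Socs3 after roxadustat in the retina RNA to 0.064. Xist as a covariate gave 3 after roxadustat and 2 for the difference between tissues after roxadustat, and turned the drug difference of A2m to 0.26, Hp to 0.0051, Orm1 to 0.72 and Orm2 to 0.52. A pseudocount of 0.1 and robust empirical Bayes each gave 0 for the difference between tissues after roxadustat (A2m, adjusted p = 0.0513 and 0.0572). The cause of these changes was not tested. The share of all genes called with array weights or with Xist as a covariate is not given here. Higher counts of acute phase genes in those fits therefore cannot be told apart from more calls over all genes. The call of Orm1 after DMOG was lost without a filter (adjusted p = 0.0645) and under robust empirical Bayes (0.0584). With a filter at 5 FPKM no member was left for the difference between tissues.

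Libraries with the same replicate number did not all deviate together: in the liver RNA the correlations of 18 such pairs ran from -0.33 to 0.55 (median 0.043, against 0.010 for other numbers), and 7 of 18 libraries correlated best with their own number (4 of 18 in the retina RNA). With a replicate block the call of Orm1 after DMOG was lost (adjusted p = 0.0630), the count going from 5 to 4, and no other call changed. Scaling all libraries to equal totals moved the share of higher genes among all called in the liver RNA from 41.4% of 2526 to 17.8% of 3274 after DMOG, from 51.7% of 530 to 31.4% of 759 after roxadustat, and from 62.0% of 379 to 82.6% of 558 between the drugs, and changed no call or direction of the 10 genes. Depth is unknown, which limits what can be said of the 7 genes below 0.3 FPKM in the retina RNA.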

Other observations

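In the retina RNA, Hp was at 0.142 ± 0.0459 FPKM after roxadustat against 0.0668 ± 0.0302 after PBS (SD, n = 6), below the level at which genes were tested.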
